A study of Mus musculus with 18 samples.

Results

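Kupffer cells, the macrophages that live in the sinusoids of the liver, were compared between 6 h and 3 h after acetaminophen, to see which of the changes present at 3 h had faded and which were still there. The comparison used 6 of the 18 RNA libraries in the series, 3 per time, and the 18003 genes that stand in both of the deposited time-course tables, which hold 18853 and 18373 genes. Of these, 14087 had enough reads to be tested. The 3 libraries at 0 h served as the starting level, and the 3 at 12 h are shown for their levels only. The 3 h libraries stand in 1 table with 0 h and the 6 h libraries in another with 12 h, and these tables were made separately. Time and table are therefore confounded, and a difference between 6 h and 3 h, or between 6 h and 0 h, cannot be told apart from a difference between the tables.

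All mice were wild-type C57BL/6J, and the labels give no dose, sex or age. Every time-course library carries a treatment label of acetaminophen, including those at 0 h, whose data columns are named for PBS, a buffered saline, so this group is called by its time. Livers were perfused with collagenase, hepatocytes were spun down, and the cells of a density gradient were allowed to attach to a dish, per the labels' protocols. These also state that the gradient fraction held sinusoidal endothelial cells. The labels do not say whether replicates came from separate animals, so p-values measure the spread between libraries, which may be technical.

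Acetaminophen is toxic to hepatocytes once they convert it to a reactive quinone imine, and the contents of dying cells reach the neighbouring Kupffer cells. Macrophages answer such signals through NF-kB, a family of transcription factors that switches on cytokines, chemokines that draw neutrophils, and its own inhibitors, which end the response. Stress hormones of the glucocorticoid class and the NRF2 pathway, which responds to oxidants, switch on other genes in the same cells.

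Levels are CPM, counts scaled to a common library total, on the TMM scale, and changes are log2 values from edgeR's quasi-likelihood test with their standard errors (SE) and p-values adjusted by Benjamini-Hochberg over all genes tested. A gene was called when its adjusted p was below 0.05. At 6 h against 3 h, 545 genes (3.87% of those tested) were called higher and 641 (4.55%) lower, and the change was 2-fold or more in 181 and 343 of them. List counts between these times are set against these shares. A further comparison of 3 h with 0 h called 2706 genes (19.1%) higher and 3264 (23.1%) lower at any fold, the share that list counts at 3 h are set against. Of these, 953 (6.73% of those tested) were higher and 1340 (9.47%) lower by at least 2-fold, here named early rises and early falls. Against 0 h, the 6 h libraries had 1386 genes (9.85%) called higher and 1499 (10.7%) called lower.

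The 6 h against 3 h calls depended on single libraries. Without 3 h replicate 2 or without 3 h replicate 3, 2 genes were called in all, 1 in each direction, and Nes was among them both times. Without 6 h replicate 1, 22 genes were called higher and 19 lower, and without 6 h replicate 2, 90 and 101. Without 3 h replicate 1 the counts were 354 and 516, and without 6 h replicate 3 they were 394 and 565. At an unadjusted p below 0.05 there were 4267 genes in the full fit, and 2800 to 4493 in these 6 fits. Among the called genes named by rule, Nes kept its call in all 6 fits and the other 77 each lost it in at least 2 of them, so their log2 changes are given below with the range over these fits.

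**Figure D1:**
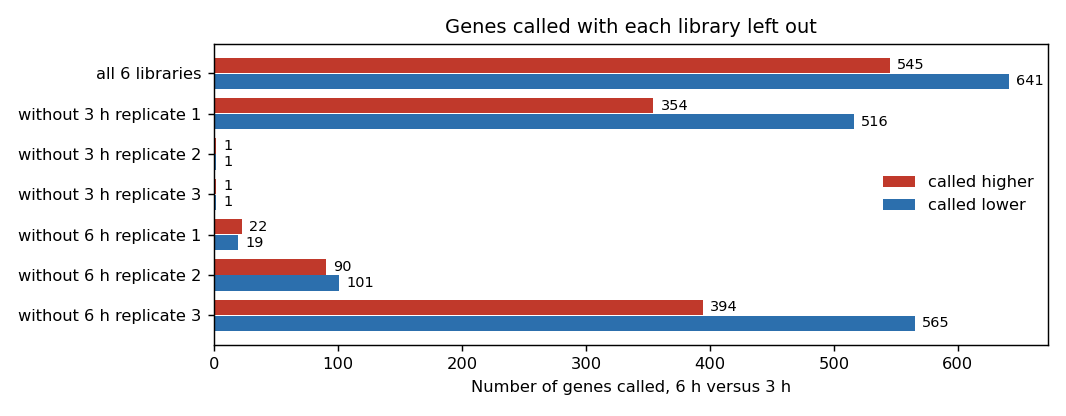
Number of genes called higher or lower at 6 h against 3 h (horizontal axis) with all 6 libraries and with each library left out in turn. The counts drop from 545 and 641 to 1 and 1 without 3 h replicate 2 or 3.

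Some libraries stood apart from their group. Total counts were 18644358 to 19126035 at 3 h and 19024975 to 19638958 at 6 h, so depth hardly differed. Replicate 1 at 3 h had lower levels of many inflammatory genes than replicates 2 and 3, and by chi-square per degree of freedom it was about as far from 3 h replicate 2 (49.1) as from 6 h replicate 2 (50.8). Replicate 3 at 6 h carried genes of monocyte-derived macrophages that replicates 1 and 2 nearly lacked. Kupffer cell markers were present throughout: their 20 genes summed to 17000 to 21100 CPM at 3 h and to 21100 to 26900 CPM at 6 h.

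Of the 953 early rises, 202 (21.2%) were called lower at 6 h than at 3 h and are described as faded. Another 331 (34.7%) were not called lower and were still called higher than at 0 h, which is described as persisted. The 418 (43.9%) that met neither condition were left undecided, and 2 rose further. Of the 1340 early falls, 109 (8.13%) were called higher at 6 h than at 3 h and are described as recovered, 741 (55.3%) persisted below 0 h, 479 (35.7%) were undecided and 11 fell further. All of these comparisons share libraries: a high chance value at 3 h makes a gene an early rise and also makes it look faded, so the counts say how genes were sorted and are no test. Without 3 h replicate 2, 0 early rises counted as faded and 416 as persisted. Without 6 h replicate 2, 57 counted as faded and 0 as persisted, since no gene was then called at 6 h against 0 h (4291 had an unadjusted p below 0.05), and without 0 h replicate 2, 159 and 8. Without 6 h replicate 1, 9 counted as faded and 115 as persisted. No call at 6 h against 0 h given below holds without 6 h replicate 2. Of the calls at 3 h against 0 h in genes named by rule, 89 held in every fit that leaves out a library and 45 did not.

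**Figure D2:**
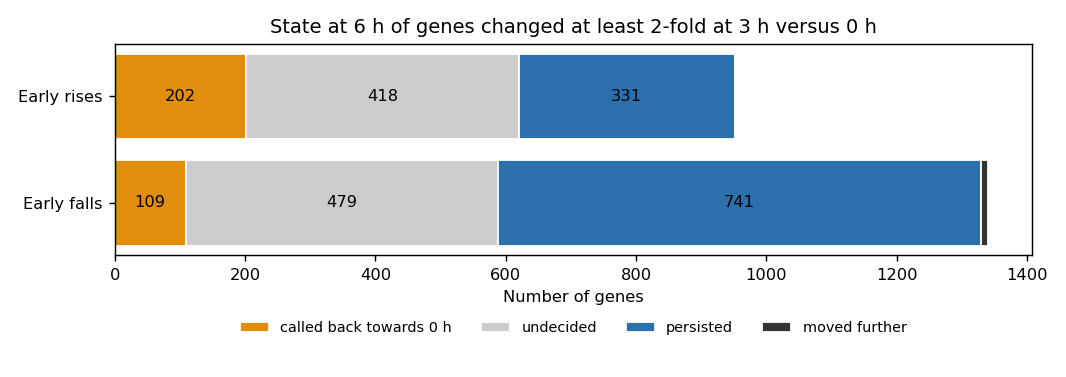
Number of genes (horizontal axis) among early rises and early falls by their state at 6 h. Of the early rises 202 were called back towards 0 h and 331 persisted, against 109 and 741 of the early falls.

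Under the naming rule, the largest fall between the times was in Csf3 (gene identifier 12985), which encodes granulocyte colony-stimulating factor, the growth factor that releases neutrophils from the marrow. Its levels were 5.00, 1.78 and 1.01 CPM at 0 h, 34.4, 55.1 and 110 CPM at 3 h, and 0.556, 3.99 and 2.70 CPM at 6 h. The 3 h libraries were all above those of the other times, and the 6 h values overlapped those of 0 h. Genes with the largest change between 6 h and 3 h were picked only where these groups did not overlap. Lack of overlap between these times was thus fixed by the rule for Csf3, Cxcl3, Rnd1, Slamf1, Acod1 and Gbp5. The same holds for Tifab, Nes, Cysltr1, Kcna2, Abcd2, Engase and Tmem150b. The change was -4.81 ± 0.70 (SE, n = 3 each; adjusted p = 0.0233), with -5.41 to -4.25 over the left-out fits.

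Cxcl3, Cxcl2 and Cxcl1 encode chemokines that draw neutrophils. Cxcl3 stood at 23.0, 44.8 and 133 CPM at 3 h and at 3.08, 6.62 and 7.48 CPM at 6 h, a change of -3.59 ± 0.69 (SE, adjusted p = 0.033, left-out range -3.99 to -2.60). Cxcl2, far more abundant, went from 1480, 1270 and 1940 CPM to 297, 677 and 622 CPM (-1.59 ± 0.33, SE, adjusted p = 0.0375, left-out range -1.83 to -1.31). The times did not overlap for either gene. Cxcl1 went from 204, 143 and 216 CPM to 18.1, 101 and 69.4 CPM, a difference of -1.61 ± 0.54 (SE) that was not called (adjusted p = 0.0996). Its groups did not overlap. The 6 h libraries spread more for Cxcl1 than for Cxcl3, while the change and the SE of Cxcl1 were both smaller.

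Other early rises with a large change at 3 h were called lower as well. Rnd1, a small GTPase that loosens the actin cytoskeleton, had 66.7, 318 and 574 CPM at 3 h and 8.75, 16 and 11.1 CPM at 6 h (-4.77 ± 0.77, SE, adjusted p = 0.0255, left-out range -5.25 to -4.04). Slamf1, a receptor of activated leukocytes, had 5.21, 27.1 and 29.7 CPM and then 0.809, 2.05 and 2.03 CPM (-3.70 ± 0.70, SE, adjusted p = 0.0323, left-out range -4.15 to -3.34). In both, 3 h replicate 1 was the lowest of its group by a wide margin, yet still above every 6 h library. Rdh12, a retinol dehydrogenase, went from 46.2, 59.2 and 88.2 CPM to 8.95, 14.7 and 5.92 CPM (-2.74 ± 0.38, SE, adjusted p = 0.0233, left-out range -3.16 to -2.45). Crispld2, a secreted protein that binds endotoxin, fell by 1.80 on the log2 scale (adjusted p = 0.0258).

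Among 20 NF-kB subunits, inhibitors and targets, 10 were called lower at 6 h than at 3 h and 0 higher, with a median of -1.21. At an unadjusted p below 0.05 edgeR had 16 lower and 0 higher, and DESeq2 called 16 lower and 0 higher. By comparison, 4.55% of all genes were called lower and the median of all genes was 0.028. Without 3 h replicate 2, without 3 h replicate 3 or without 6 h replicate 1 no member was called, and without 6 h replicate 2 1 was, while the median stayed between -1.41 and -0.98 in the 6 left-out fits. The subunits called lower were Nfkb1, Nfkb2 and Relb. The inhibitors called lower were Nfkbib, Tnip1, Tnfaip3 and Zc3h12a. The remaining ones were Birc3, which blocks cell death, the adhesion molecule Icam1 and Tnfaip2. At 3 h against 0 h, 4 of the 20 were called higher and 0 lower (19.1% and 23.1% of all genes were). Only 3 of the list were early rises that faded, so most of the 10 falls were in genes that were no early rise. At 6 h against 0 h, 5 were called lower and 0 higher (10.7% and 9.85% of all genes were).

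Tnfaip3 (gene identifier 21929) encodes A20, the ubiquitin-editing enzyme that shuts NF-kB signalling off. It stood at 740, 346 and 394 CPM at 0 h, 1500, 1610 and 2330 CPM at 3 h, and 219, 716 and 537 CPM at 6 h. The 3 h libraries were above all others, and the 6 h values overlapped those of 0 h. The fall was -1.92 ± 0.43 (SE, adjusted p = 0.0426), with -2.32 to -1.57 in the left-out fits, none of which called it. Zc3h12a, an RNase that degrades cytokine messages, went from 168, 231 and 247 CPM to 67.5, 90.6 and 97.2 CPM (-1.37 ± 0.20, SE, adjusted p = 0.0233, left-out range -1.52 to -1.24).

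Relb and Icam1 were no early changes, and both stood lower at 6 h than at the start. Relb, the subunit of the non-canonical branch, had 188, 115 and 79.8 CPM at 0 h, 109, 179 and 156 CPM at 3 h and 26.0, 25.8 and 51.6 CPM at 6 h. Icam1 had 995, 678 and 296 CPM at 0 h, 524, 1050 and 1280 CPM at 3 h, and 172, 184 and 294 CPM at 6 h. For both, every 6 h library was below every 3 h library. The changes were -2.14 ± 0.31 (SE, adjusted p = 0.0233, left-out range -2.53 to -1.98) for Relb and -2.17 ± 0.36 (SE, adjusted p = 0.028, left-out range -2.46 to -1.90) for Icam1. Against 0 h, Relb fell by 1.88 and Icam1 by 1.59 on the log2 scale, both called (adjusted p = 0.0226 and 0.043). Those calls against 0 h were each lost in at least 1 fit that leaves out a library.

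Of 18 cytokine genes tested, 2 were called lower at 6 h (4.55% of all genes were), with a median of -1.42, and DESeq2 called 6 lower. Beside Csf3 this was Csf1, the macrophage growth factor, at 168, 372 and 368 CPM at 3 h and 84.5, 111 and 107 CPM at 6 h (-1.62 ± 0.31, SE, adjusted p = 0.0323, left-out range -1.90 to -1.46). Csf1 was no early rise. At 3 h against 0 h, 5 of the 18 were called higher and 2 lower (19.1% and 23.1% of all genes were). The list held 1 early rise that faded and 4 undecided ones, Il6 among the latter. The best known cytokines of the list were not called between the times. Il6 had 260, 104 and 222 CPM at 3 h and 16.9, 99.3 and 48.0 CPM at 6 h (-1.87 ± 0.62, SE, adjusted p = 0.0982). Il10, the anti-inflammatory cytokine, had 307, 78.5 and 226 CPM and then 23.1, 97.4 and 43.9 CPM (-1.93 ± 0.64, SE, adjusted p = 0.096). In both, 6 h replicate 2 was the highest of its group, close to 3 h replicate 2, the lowest of its own.

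Il1b, which encodes interleukin 1 beta, had 1290, 1630 and 2240 CPM at 3 h and 381, 1230 and 1200 CPM at 6 h (-0.91 ± 0.44, SE, adjusted p = 0.212), with only 6 h replicate 1 clearly lower. Tnf, another first-line cytokine, had 179, 271 and 306 CPM and then 37.4, 63.3 and 216 CPM (-1.30 ± 0.60, SE, adjusted p = 0.19). Its groups overlapped through 6 h replicate 3, and without that library the value was -2.34.

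Chemokine genes had 5 members called lower and 1 higher of 20 tested (4.55% and 3.87% of all genes were), with a median of -1.02. Ccl3 and Ccl5, which draw monocytes and T cells, were among the lower ones. Ccl3 had 425, 648 and 881 CPM at 3 h and 185, 203 and 310 CPM at 6 h (-1.52 ± 0.31, SE, adjusted p = 0.0346, left-out range -1.77 to -1.25). Ccl5 had 65.4, 210 and 174 CPM and then 11.6, 33.0 and 28.6 CPM (-2.65 ± 0.52, SE, adjusted p = 0.0338, left-out range -3.01 to -2.31). Neither gene overlapped between the times, and neither was called at 3 h against 0 h. Ccl2, the chief monocyte chemokine, did not follow them, at 63.1, 86.3 and 103 CPM and then 50.4, 101 and 134 CPM (0.14 ± 0.34, SE, adjusted p = 0.812).

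Genes of cytokine feedback through STAT3 had 9 of 16 members called higher at 3 h against 0 h (19.1% of all genes were). At 6 h against 3 h, 3 of 16 were called lower (4.55% of all genes were), at a median of -0.76. Il1r2, the decoy receptor that soaks up interleukin 1, went from 276, 387 and 480 CPM to 72.1, 127 and 36.5 CPM (-2.30 ± 0.45, SE, adjusted p = 0.0337, left-out range -2.85 to -1.95). Cish, a suppressor of cytokine signalling, went from 57.7, 59.5 and 67.4 CPM to 24.6, 39.8 and 18.8 CPM (-1.18 ± 0.27, SE, adjusted p = 0.0447, left-out range -1.55 to -0.95). Both were back within the range of 0 h or near it. Socs3, the inhibitor of interleukin 6 signalling, missed the threshold at 1610, 1920 and 2560 CPM and then 581, 1130 and 408 CPM (-1.55 ± 0.40, SE, adjusted p = 0.0564), although its groups did not overlap. Txnrd1 (adjusted p = 0.0507) lay just outside the threshold and Zbtb16 (adjusted p = 0.049) just inside it.

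Promoters of the faded and the persisted early rises were searched for the letters of factors of these pathways. The 250 bases before the start were searched on both strands for the NF-kB letters GGGAATTTC, GGGACTTTC, GGAATTTCC and GGGAAATTC, which can overlap each other. They were in 6 of 164 faded genes with a promoter in the RefSeq table (3.66%), in 0 of 272 persisted genes, in 0.847% of the 11214 tested genes with a promoter, and in 0.847% of all 27025 promoters. The 6 were Cxcl2, Cxcl3, Tnfaip3, S100a9, Pglyrp1 and Il18rap. Of these, Cxcl2 and Cxcl3 lie near each other on chromosome 5 and share the same stretch of letters. The undecided early rises, the largest class, were not counted as a set, and Cxcl1 among them holds NF-kB letters too. The AP-1 letters TGAGTCA or TGACTCA were in 9 faded genes (5.49%), in 6 persisted genes (2.21%), in 3.24% of tested genes and in 4.43% of all promoters. A CRE (TGACGTCA) was in 4 faded (2.44%) and 5 persisted genes (1.84%), against 2.53% of tested genes and 1.62% of all promoters.

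Shares of the other motifs lay as follows. The letters TGTTCT, to which the glucocorticoid receptor binds, were in 8.54% of faded genes, 11% of persisted genes, 11.3% of tested genes and 16.2% of all promoters. The NRF2 core TGACNNNGC, which can overlap an AP-1 match, was in 12.2%, 11.4%, 11.9% and 10.1% in the same order, and the STAT letters TTCCNGGAA in 0.61%, 0.735%, 0.99% and 0.914%. A match is a description of letters and not a bound site. The 250 bases below (RefSeq, GRCm38.p6, 5′ to 3′ on the gene's strand, matches in capitals) show the shared NF-kB stretch of the chemokine genes Cxcl2 and Cxcl3, which faded, and of the undecided Cxcl1, at chr5:90903649-90903898, chr5:90785851-90786100 and chr5:90890995-90891244, all plus strand. Tnfaip3 (chr10:19015411-19015660, minus strand) holds an AP-1 and an NF-kB match, and Srxn1 (chr2:152105274-152105523, plus strand), which persisted, holds a pair of AP-1 matches and no NF-kB match.
Cxcl2: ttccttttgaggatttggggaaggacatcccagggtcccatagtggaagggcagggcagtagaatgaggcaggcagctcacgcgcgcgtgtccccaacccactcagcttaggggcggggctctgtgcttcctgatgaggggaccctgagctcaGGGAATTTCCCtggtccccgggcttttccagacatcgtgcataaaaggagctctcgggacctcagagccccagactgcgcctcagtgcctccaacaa
Cxcl3: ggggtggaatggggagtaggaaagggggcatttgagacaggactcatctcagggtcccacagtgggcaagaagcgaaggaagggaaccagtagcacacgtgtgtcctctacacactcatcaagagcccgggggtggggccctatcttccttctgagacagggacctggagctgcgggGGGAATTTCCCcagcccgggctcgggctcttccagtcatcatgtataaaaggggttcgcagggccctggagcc
Cxcl1: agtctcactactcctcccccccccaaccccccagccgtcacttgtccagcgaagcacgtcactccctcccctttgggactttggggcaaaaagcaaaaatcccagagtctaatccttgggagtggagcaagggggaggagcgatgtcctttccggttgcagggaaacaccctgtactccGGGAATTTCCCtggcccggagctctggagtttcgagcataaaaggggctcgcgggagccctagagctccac
Tnfaip3: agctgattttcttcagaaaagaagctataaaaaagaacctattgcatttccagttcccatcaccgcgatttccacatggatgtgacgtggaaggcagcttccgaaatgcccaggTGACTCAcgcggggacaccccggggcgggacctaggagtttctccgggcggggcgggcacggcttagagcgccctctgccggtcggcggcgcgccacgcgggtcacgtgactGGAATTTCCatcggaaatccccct
Srxn1: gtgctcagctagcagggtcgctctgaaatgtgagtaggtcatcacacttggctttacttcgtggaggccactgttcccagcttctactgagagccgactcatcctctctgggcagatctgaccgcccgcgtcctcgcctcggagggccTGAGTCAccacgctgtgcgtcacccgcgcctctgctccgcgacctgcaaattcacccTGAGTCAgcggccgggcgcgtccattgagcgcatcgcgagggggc

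Neutrophil markers moved with the inflammatory genes. Il1r2 stands in the neutrophil list and in those of STAT3 feedback and glucocorticoid-induced genes. Of 19 neutrophil markers tested, 12 were called lower at 6 h than at 3 h and 0 higher (4.55% and 3.87% of all genes were), with a median of -1.52. DESeq2 called 15 lower and 0 higher, and edgeR had 16 lower and 0 higher at an unadjusted p below 0.05. Their 20 genes summed to 2550, 4280 and 5260 CPM at 3 h and to 1060, 1330 and 1090 CPM at 6 h, against 710 to 2340 CPM at 0 h. No member was called without 3 h replicate 2, without 3 h replicate 3 or without 6 h replicate 1, and 3 were without 6 h replicate 2, while the median stayed between -1.89 and -1.31. In bulk RNA, fewer cells of a type and less RNA per cell cannot be told apart.

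S100a8, a subunit of the calprotectin complex of neutrophils and monocytes, had 131, 281 and 373 CPM at 3 h and 46.9, 54.1 and 33.8 CPM at 6 h (-2.57 ± 0.39, SE, adjusted p = 0.0235, left-out range -2.89 to -2.23). Ly6g, which defines mouse neutrophils, was low at 1.94, 4.43 and 7.24 CPM and then 0.657, 0.945 and 0.987 CPM (-2.42 ± 0.50, SE, adjusted p = 0.0374). Both were lowest at 3 h in replicate 1, the library with the lowest Rnd1 and Slamf1. Cxcr2, the receptor for Cxcl1 to Cxcl3, went from 111, 222 and 222 CPM to 56.8, 84.6 and 65.3 CPM (-1.46, adjusted p = 0.0343). Elane, made by neutrophil precursors, was near 0, at up to 0.153 CPM at 3 h and up to 0.42 CPM at 6 h, and was not tested. The part of neutrophil RNA in the falls of Csf3, Cxcl3, Il1r2 and the NF-kB genes was not tested.

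**Figure D3:**
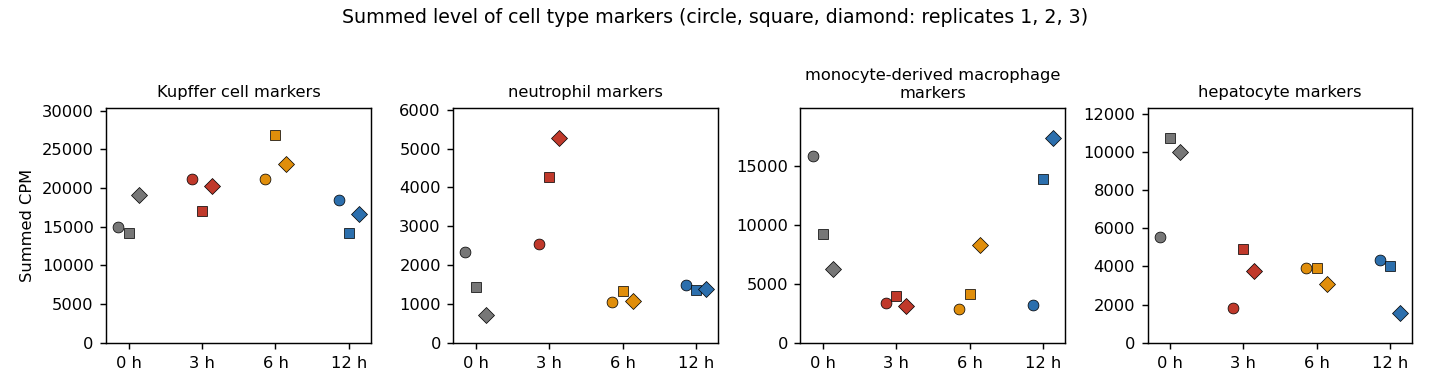
Summed CPM (vertical axis) of the markers of 4 cell types in each library by time, with symbols for replicates. Neutrophil markers stand at 2550 to 5260 CPM at 3 h and at 1060 to 1330 CPM at 6 h, and among the 6 h libraries replicate 3 has the highest monocyte-derived macrophage markers.

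Glucocorticoid-induced genes were among the early rises that were still called above 0 h at 6 h. Of 20 such genes, 16 were called higher at 3 h against 0 h (19.1% of all genes were), 8 were called higher at 6 h against 0 h (9.85% of all genes), and 2 were called lower and 1 higher at 6 h against 3 h (median -0.25). Replicate 3 at 6 h stood apart here too: the list summed to 12900, 14000 and 8270 CPM at 6 h, against 11700 to 11900 CPM at 3 h and 5900 to 6220 CPM at 0 h. Without that library the median between the times was 0.08. Fkbp5, a co-chaperone of the glucocorticoid receptor, had 53.7, 66.6 and 56.6 CPM at 0 h, 521, 312 and 334 CPM at 3 h and 579, 707 and 292 CPM at 6 h. All 3 h and 6 h libraries were well above 0 h and overlapped each other. Its change between the times was 0.41 ± 0.35 (SE, adjusted p = 0.465), and against 0 h it was 3.18 at 6 h (adjusted p = 0.0128). Tsc22d3, which encodes GILZ, a mediator of the anti-inflammatory action of glucocorticoids, was 0.28 ± 0.38 (SE, adjusted p = 0.663) between the times and 1.52 above 0 h at 6 h (adjusted p = 0.0246).

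Cd163, the scavenger receptor for haemoglobin, rose from 402, 389 and 558 CPM at 0 h to 1790, 1050 and 1520 CPM at 3 h and stood at 2710, 1540 and 1340 CPM at 6 h. The 3 h and 6 h libraries overlapped and none came near 0 h. The difference between them was 0.33 ± 0.33 (SE, adjusted p = 0.523), and the change from 0 h to 6 h was 2.07 (adjusted p = 0.0152). Per1, a clock gene that glucocorticoids induce, had 523, 344 and 423 CPM at 3 h and 395, 448 and 201 CPM at 6 h (-0.33 ± 0.32, SE, adjusted p = 0.511), against 83.8 to 127 CPM at 0 h. Zbtb16, a zinc finger factor of the same list, behaved otherwise: from 120, 108 and 98.7 CPM it fell to 44.8, 67.9 and 28.4 CPM (-1.24 ± 0.30, SE, adjusted p = 0.049, left-out range -1.61 to -0.96), still above the 9.31 to 15.5 CPM of 0 h. Il1r2, described above with the STAT3 genes, also stands in this list and was the other member called lower between the times.

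The 6 persisted early rises that were largest at 3 h all had their lowest 6 h value in replicate 3. Slc10a6 (gene identifier 75750), a transporter of sulfated steroids, had 0.876, 0.406 and 0.352 CPM at 0 h, 19.1, 44.4 and 26.3 CPM at 3 h and 24.2, 21.4 and 7.11 CPM at 6 h. Igfbp1, which binds insulin-like growth factors in blood, had 11.9, 43.9 and 20.3 CPM at 3 h and 10.7, 10.8 and 1.97 CPM at 6 h, all above the 0.352 to 0.722 CPM of 0 h. Neither was called between 3 h and 6 h: Slc10a6 differed by -0.79 ± 0.48 (SE, adjusted p = 0.311) and Igfbp1 by -1.71 ± 0.68 (SE, adjusted p = 0.143). A p above the threshold does not show that a level was held, and Igfbp1 did not overlap between 3 h and 6 h.

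Rasd1, a Ras-related protein induced by dexamethasone, had 20.1 to 28.1 CPM at 0 h, 216, 275 and 281 CPM at 3 h and 164, 334 and 56.6 CPM at 6 h. Lepr, the leptin receptor, had 27.1 to 37.6 CPM at 0 h, 318, 212 and 356 CPM at 3 h and 553, 147 and 55.4 CPM at 6 h. Their 6 h libraries ran from above the 3 h group down towards 0 h, with replicate 3 lowest. The changes between the times were -0.50 ± 0.55 for Rasd1 and -0.25 ± 0.73 for Lepr (SE, adjusted p = 0.575 and 0.843). Tgfb3, a growth factor of the TGF-beta family, was as scattered, with 131, 18.8 and 57.6 CPM at 3 h and 53.4, 105 and 5.40 CPM at 6 h (-0.36 ± 0.98, SE, adjusted p = 0.836). Adm, which encodes the vasodilator adrenomedullin, had 52.3, 120 and 266 CPM and then 31.7, 47.0 and 24.5 CPM. Its groups did not overlap, its change of -2.12 ± 0.57 (SE) was not called (adjusted p = 0.0615), and it counts as persisted only because it was still called above 0 h (1.31, adjusted p = 0.0236).

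Hypoxia targets outside glycolysis had 8 of 18 members called higher and 1 lower at 6 h against 0 h (9.85% and 10.7% of all genes were). The median of the list against 0 h was -0.10, so the rise was not shared by the whole list. At 6 h against 3 h, 0 were called in either direction, at a median of -0.10. At an unadjusted p below 0.05, edgeR had 2 members higher and 4 lower between the times, and DESeq2 called 1 in each direction. Ddit4, an inhibitor of mTORC1, had 10.9 to 20.4 CPM at 0 h, 56.7, 37.5 and 32.2 CPM at 3 h and 336, 210 and 35.4 CPM at 6 h. In 6 h replicates 1 and 2 it was far above every 3 h library, and in replicate 3 it was not, so that the difference of 2.18 ± 0.71 (SE) was not called (adjusted p = 0.0929).

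NRF2 targets split by gene. Of 19, 2 were called higher at 6 h than at 3 h and 1 lower (3.87% and 4.55% of all genes were), at a median of -0.26. Srxn1, which repairs oxidised peroxiredoxins, had 52.7 to 63.6 CPM at 0 h, 171, 212 and 233 CPM at 3 h and 235, 192 and 132 CPM at 6 h. Its groups overlapped between 3 h and 6 h (-0.17 ± 0.23, SE, adjusted p = 0.664), and at 6 h it was 1.74 above 0 h (adjusted p = 0.0136). Nqo1, a quinone reductase, came later, at 3.81, 4.82 and 6.59 CPM at 0 h, 5.62, 6.37 and 6.38 CPM at 3 h and 26.9, 15.5 and 17.0 CPM at 6 h. All 6 h libraries exceeded all others of 0 h and 3 h, with a change of 1.66 ± 0.24 (SE, adjusted p = 0.0233, left-out range 1.37 to 1.80). Slc7a11, the cystine transporter that feeds glutathione synthesis, went the other way, from 22.5, 96.5 and 138 CPM to 8.85, 12.9 and 19.7 CPM (-2.67 ± 0.63, SE, adjusted p = 0.0474, left-out range -3.12 to -2.14).

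**Figure D4:**
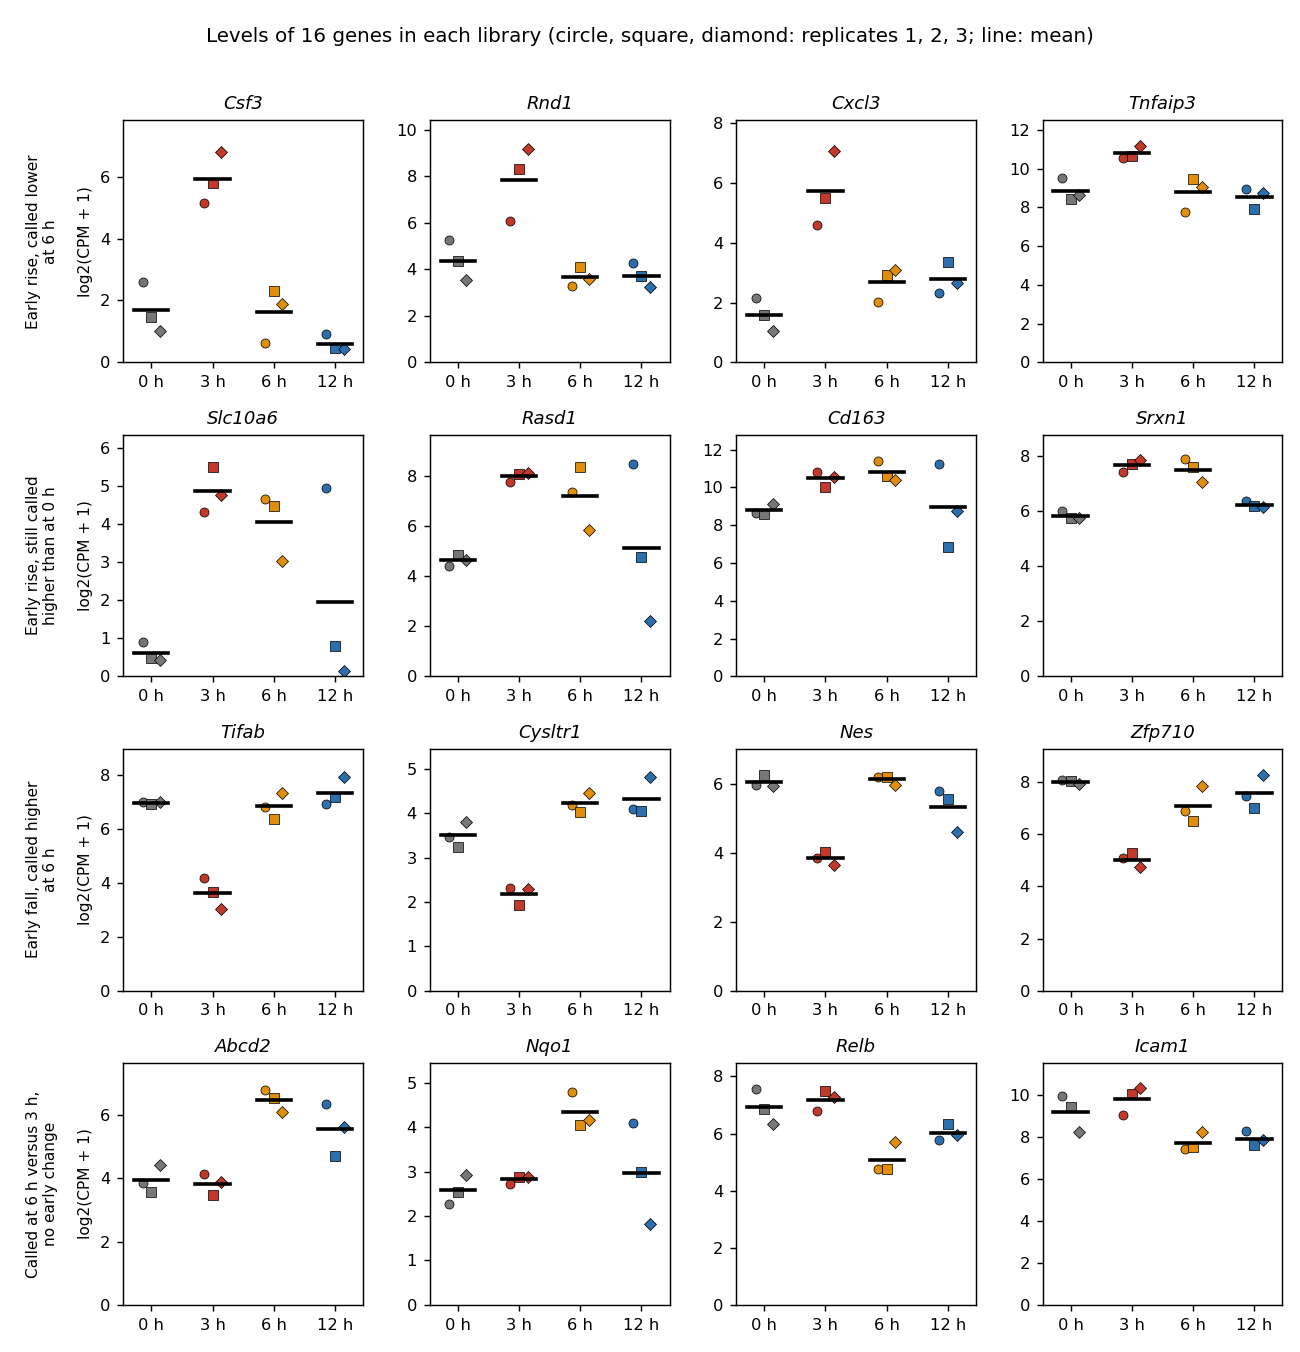
Levels as log2(CPM + 1) (vertical axis) of 16 genes in every time-course library, with a line at each group's mean. Csf3, Rnd1, Cxcl3 and Tnfaip3 are high at 3 h alone, Slc10a6, Rasd1, Cd163 and Srxn1 are above 0 h at both 3 h and 6 h, Tifab, Cysltr1, Nes and Zfp710 are low at 3 h alone, and Abcd2 and Nqo1 are higher and Relb and Icam1 lower at 6 h than at 3 h.

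Early falls that recovered were led by Tifab (gene identifier 212937), which encodes an inhibitor of TRAF6 signalling upstream of NF-kB. It had 128, 122 and 128 CPM at 0 h, 17.4, 11.8 and 7.18 CPM at 3 h and 112, 82.2 and 163 CPM at 6 h. Every 3 h library was below every other, and the 6 h values spread to both sides of 0 h. The rise was 3.25 ± 0.37 (SE, adjusted p = 0.0165, left-out range 2.98 to 3.61). Nes (gene identifier 18008), which encodes the intermediate filament nestin, was the tightest: 61.5, 75 and 59.7 CPM at 0 h, 13.3, 15.2 and 11.5 CPM at 3 h, and 72.8, 72.5 and 62.0 CPM at 6 h. It rose by 2.34 ± 0.14 (SE, adjusted p = 0.00833) and was called in all 6 left-out fits (2.24 to 2.43).

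Cysltr1, a receptor for cysteinyl leukotrienes, rose from 3.98, 2.81 and 3.88 CPM to 17.1, 15.4 and 21.1 CPM (2.29 ± 0.20, SE, adjusted p = 0.0156, left-out range 2.14 to 2.39) and ended above 0 h (0.77, adjusted p = 0.042). Kcna2, a voltage-gated potassium channel, rose from 16.8, 4.70 and 8.21 CPM to 40.6, 35.9 and 79.4 CPM (2.35 ± 0.50, SE, adjusted p = 0.0384, left-out range 1.93 to 2.97). The groups did not overlap in either gene, as the naming rule required, and 6 h replicate 3 was the highest library in both. Zfp710, a zinc finger gene, rose from 32.5, 37.5 and 25.6 CPM to 118, 89.6 and 231 CPM, and Sox18, an endothelial transcription factor, from 11.2, 18.7 and 17.5 CPM to 55.6, 34.6 and 123 CPM. These 2 changes were 2.16 ± 0.34 and 2.13 ± 0.45 (SE, adjusted p = 0.0252 and 0.039, left-out ranges 1.69 to 2.40 and 1.5 to 2.44). Markers of sinusoidal endothelium had 0 of 16 called between the times by edgeR, 1 higher and 3 lower at an unadjusted p below 0.05 and the same numbers by DESeq2, and summed to 10600 to 12100 CPM at 3 h and 9210 to 10900 CPM at 6 h.

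Hepatocyte genes were among the early falls that persisted. Adh4, an alcohol dehydrogenase, had 17.6, 53 and 58.3 CPM at 0 h, 0.562, 1.19 and 0.684 CPM at 3 h and 1.11, 0.315 and 0.987 CPM at 6 h. Rgn, a calcium-binding protein, had 21.5, 51.7 and 57.0 CPM, then 1.17, 2.10 and 0.627 CPM, then 1.11, 0.473 and 1.30 CPM. Both stayed near 1 CPM at 3 h and 6 h, with differences of -0.04 ± 0.51 and -0.47 ± 0.52 (SE, adjusted p = 0.967 and 0.578). Cyp2e1, the main enzyme that activates acetaminophen, had 176 to 276 CPM at 0 h, 41.2, 57.9 and 43.1 CPM at 3 h and 42.7, 26.2 and 43.4 CPM at 6 h (-0.37 ± 0.22, SE, adjusted p = 0.292). Of 22 hepatocyte markers, 13 were called lower at 3 h and 13 at 6 h, each against 0 h (23.1% and 10.7% of all genes were). In each comparison 1 marker was called higher, and G6pc was a persisted rise. Between 3 h and 6 h 0 markers were called (1 lower at an unadjusted p below 0.05, and 1 lower by DESeq2). The 22 markers summed to 5540 to 10700 CPM at 0 h, 1850 to 4920 CPM at 3 h and 3060 to 3940 CPM at 6 h. Less hepatocyte RNA in the libraries and lower expression of these genes in hepatocytes cannot be told apart here. The part of either in the persisted falls was not tested.

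Several lists of metabolism and protein upkeep had fewer members called below 0 h at 6 h than at 3 h. The same held for all genes, with 10.7% called lower at 6 h and 23.1% at 3 h, so a drop in counts alone does not show recovery. Median log2 changes at 3 h and 6 h, each against 0 h, were -0.74 and -0.61 for oxidative phosphorylation genes. They were -1.07 and -1.12 for cholesterol genes and -0.95 and -0.88 for heat shock genes. Oxidative phosphorylation genes had 25 of 28 called lower at 3 h and 13 at 6 h, each against 0 h, and 0 called between the times, at a median of 0.14 (5 higher at an unadjusted p below 0.05, and 1 higher by DESeq2). Cholesterol synthesis and uptake genes had 10 of 16 and 9 of 17 called lower against 0 h. Between the times 1 was called higher (3.87% of all genes were), Lss, the lanosterol synthase. Fdps, which makes farnesyl pyrophosphate, had 25.5 to 45.4 CPM at 0 h, 6.90, 7.61 and 5.53 CPM at 3 h and 7.38, 5.88 and 10.1 CPM at 6 h. Heat shock genes had 11 of 14 and 8 of 14 called lower against 0 h. Hspa1a rose from 186, 171 and 93.3 CPM to 265, 482 and 693 CPM (1.64 ± 0.39, SE, adjusted p = 0.0467, left-out range 1.30 to 1.93, called in none), though it shares reads with its near copy Hspa1b and is uncertain. Hspd1, the mitochondrial chaperonin, had 159 to 301 CPM at 0 h, 60.7, 73.7 and 56.5 CPM at 3 h and 81.6, 80.2 and 105 CPM at 6 h, and was a persisted fall.

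Fatty acid oxidation genes had 14 of 18 called lower and 2 higher at 3 h, and 5 lower and 1 higher at 6 h, each against 0 h. Between the times 1 was called higher, Cpt1a (3.87% of all genes were), at a median of 0.35. Median log2 changes at 3 h and 6 h against 0 h were -1.52 and -1.17 for these genes. They were -0.46 and -0.2 for proteasome subunit genes. Proteasome subunit genes had 19 of 23 called lower at 3 h against 0 h (23.1% of all genes were), 4 at 6 h against 0 h (10.7% of all genes), and 3 called higher between the times, at a median of 0.26. Psmc3, an ATPase of the proteasome's cap, had 65.0, 63.8 and 61.9 CPM at 3 h and 88.1, 81.6 and 85.9 CPM at 6 h (0.39 ± 0.09, SE, adjusted p = 0.0428, left-out range 0.36 to 0.41, called in none). The groups were tight and did not overlap, and the change was small.

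Glycolysis genes had 2 called higher and 1 lower of 21 between the times (3.87% and 4.55% of all genes were), at a median of 0.03. Tpi1 and Eno1, enzymes of its lower arm, rose by 0.53 ± 0.11 and 0.61 ± 0.13 (SE, adjusted p = 0.0379 and 0.0377, left-out ranges 0.43 to 0.59 and 0.53 to 0.66). Slc2a3, a glucose transporter, fell from 87.2, 115 and 118 CPM to 39.3, 64.6 and 35.8 CPM (-1.22 ± 0.25, SE, adjusted p = 0.0364, left-out range -1.55 to -1.05). Aldoa, the glycolytic aldolase of most cells, had 411, 454 and 440 CPM at 3 h and 547, 508 and 566 CPM at 6 h. Its groups did not overlap, and its difference of 0.28 ± 0.12 (SE) was not called (adjusted p = 0.156). Pfkfb3, which makes the activator of phosphofructokinase, had 168, 360 and 272 CPM and then 129, 167 and 78.0 CPM (-1.12 ± 0.35, SE, adjusted p = 0.0878).

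Pentose phosphate genes, which supply NADPH, had 2 of 7 called higher at 6 h than at 3 h (3.87% of all genes were), at a median of 0.32. G6pdx, the first enzyme of the pathway, had 133, 152 and 134 CPM and then 210, 229 and 237 CPM (0.65 ± 0.11, SE, adjusted p = 0.0268, left-out range 0.62 to 0.70). Pgd, the enzyme that makes ribulose phosphate, had 304, 290 and 283 CPM and then 517, 468 and 390 CPM (0.62 ± 0.15, SE, adjusted p = 0.0462, left-out range 0.52 to 0.74). No library of 3 h reached those of 6 h in either gene.

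**Figure D5:**
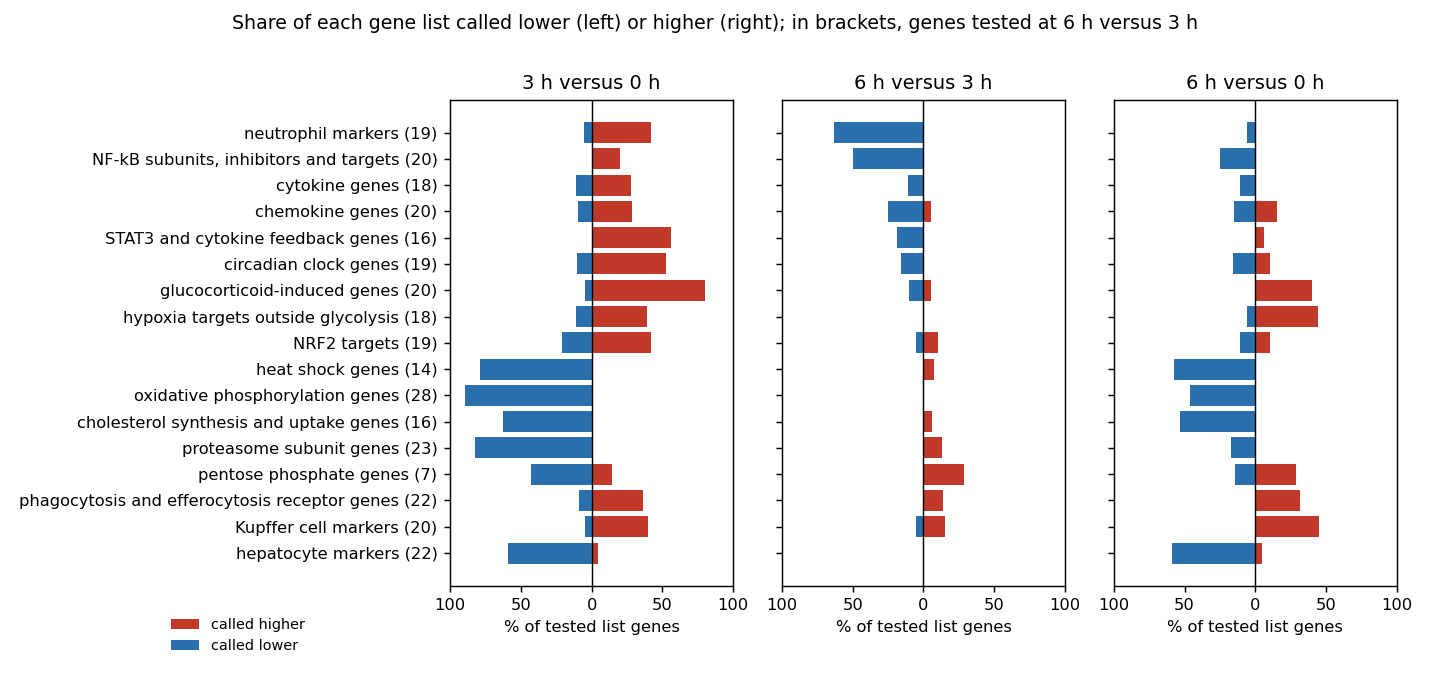
Share of the tested genes of 17 lists called lower (left of 0) or higher (right of 0) in each of the 3 comparisons, which share libraries. At 6 h against 3 h, 12 of 19 neutrophil markers and 10 of 20 NF-kB genes are called lower (4.55% of all genes are), while 0 of 22 hepatocyte markers are called.

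Genes with no early change made up 246 of the 545 called higher and 238 of the 641 called lower, counting as early any call at 3 h against 0 h. Among all genes tested at 3 h against 0 h, 5970 of 14151 were called. Genes without such a call were thus a smaller share here than among all genes. Both comparisons share the 3 h libraries. Abcd2, a peroxisomal transporter of very long fatty acids, had 13.5, 10.8 and 20.2 CPM at 0 h, 16.5, 10.1 and 13.7 CPM at 3 h and 109, 91.8 and 66.7 CPM at 6 h (2.70 ± 0.25, SE, adjusted p = 0.0165, left-out range 2.52 to 2.88). Engase, a cytosolic glycosidase, had 24.0, 6.31 and 14.2 CPM at 3 h and 114, 93.7 and 122 CPM at 6 h (2.85 ± 0.43, SE, adjusted p = 0.0235, left-out range 2.48 to 3.39). Tmem150b, a membrane protein gene, rose by 2.28 ± 0.44 (SE, adjusted p = 0.0323, left-out range 1.97 to 2.80). All 6 h libraries of these 3 genes lay above all 3 h libraries, as the naming rule required.

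Acod1, which makes itaconate, had 428, 182 and 65.3 CPM at 0 h, 102, 446 and 557 CPM at 3 h and 14.4, 39.5 and 58.6 CPM at 6 h (-3.34 ± 0.73, SE, adjusted p = 0.0407, left-out range -3.79 to -2.91). Gbp5, a guanylate-binding protein that promotes inflammasome assembly, had 53.2 to 119 CPM at 0 h, 79.9, 310 and 390 CPM at 3 h and 16.7, 25.7 and 28.4 CPM at 6 h (-3.49 ± 0.57, SE, adjusted p = 0.0265, left-out range -3.92 to -3.08). In both, 3 h replicate 1 was within the range of 0 h and above every 6 h library. Zfp811 fell by 2.89 ± 0.53 (SE, adjusted p = 0.0314, left-out range -3.80 to -2.57). Mrgpra2b, a G protein-coupled receptor gene that may share reads with a near copy and is uncertain, fell by 3.56 ± 0.74 (SE, adjusted p = 0.0373, left-out range -4.04 to -3.15).

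Kupffer cell markers had 3 of 20 called higher and 1 lower between the times (3.87% and 4.55% of all genes were), at a median of 0.40. Id1, an inhibitor of DNA-binding factors, had 63.4, 61.2 and 33.4 CPM at 3 h and 159, 162 and 113 CPM at 6 h (1.43 ± 0.27, SE, adjusted p = 0.0323, left-out range 1.18 to 1.59). Hpgd, which breaks down prostaglandins, had 345, 245 and 280 CPM and then 557, 544 and 720 CPM (1.03 ± 0.18, SE, adjusted p = 0.0289, left-out range 0.91 to 1.18). Slc40a1, the iron exporter ferroportin, had 1100, 705 and 952 CPM and then 1940, 1500 and 1930 CPM (0.93 ± 0.21, SE, adjusted p = 0.0449, left-out range 0.75 to 1.08). Spic, a factor of iron-recycling macrophages, fell from 428, 623 and 785 CPM to 118, 214 and 178 CPM (-1.88 ± 0.29, SE, adjusted p = 0.0246, left-out range -2.10 to -1.66). The groups did not overlap in any of these 4. Clec4f, which marks Kupffer cells in mice, had 2510, 1920 and 2260 CPM and then 2970, 3500 and 2930 CPM, a difference that was not called (0.46 ± 0.19, SE, adjusted p = 0.148).

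Receptors of phagocytosis and efferocytosis, the uptake of dead cells, had 3 of 22 called higher (3.87% of all genes were), at a median of 0.15. Mertk, a receptor for dying cells, had 581, 389 and 465 CPM at 3 h and 889, 863 and 775 CPM at 6 h (0.79 ± 0.18, SE, adjusted p = 0.045, left-out range 0.64 to 0.95). Fcgr4 and Fcgr1, receptors for antibodies, rose by 0.60 ± 0.14 and 0.88 ± 0.21 (SE, adjusted p = 0.0458 and 0.0487, left-out ranges 0.49 to 0.69 and 0.75 to 1.06). In all 3 the 6 h libraries were above those of 3 h.

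Genes of monocyte-derived macrophages depended on 6 h replicate 3. Cx3cr1, the fractalkine receptor, had 154, 82.7 and 50.5 CPM at 0 h, 2.76, 3.13 and 3.31 CPM at 3 h and 3.29, 2.68 and 53.3 CPM at 6 h. Vcan, which encodes versican, had 643, 354 and 125 CPM, then 2.76, 36.1 and 4.33 CPM, then 5.97, 5.30 and 233 CPM. Neither was called (adjusted p = 0.166 and 0.337), and without 6 h replicate 3 the differences went from 2.63 to -0.05 for Cx3cr1 and from 2.45 to -1.36 for Vcan. Of 18 such markers 1 was called higher, Lgals3 (3.87% of all genes were). The median was 0.64 with all libraries and -0.47 without 6 h replicate 3. Their sums were 3120 to 3970 CPM at 3 h and 2870, 4190 and 8290 CPM at 6 h.

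Other lists had few calls between 3 h and 6 h, beside 3.87% of all genes called higher and 4.55% called lower. Clock genes had 3 of 19 called lower, Npas2, Cry2 and Rora. Targets of p53 had 3 of 16 called lower, Mdm2, Bbc3 and Fas. Fosl1, an AP-1 subunit and 1 of the 2 early rises that rose further, had 0.403 to 2.06 CPM at 0 h, 6.44, 5.88 and 4.84 CPM at 3 h and 11.7, 15.4 and 11.5 CPM at 6 h (1.14 ± 0.19, SE, adjusted p = 0.0286, left-out range 0.97 to 1.24). It was the only 1 of 25 immediate early genes called. Mki67, a proliferation marker, fell from 118, 194 and 339 CPM to 49.6, 26.9 and 47.2 CPM (-2.43 ± 0.42, SE, adjusted p = 0.0288, left-out range -2.72 to -1.95), while among the 24 cell cycle genes Bub1b was called higher and the median was 0.07. Platelet markers had 0 of 12 called between the times, also by DESeq2 and at an unadjusted p below 0.05. At 3 h against 0 h, 8 of 11 were called higher and 2 lower (19.1% and 23.1% of all genes were). At 6 h against 0 h, 5 of 10 were called higher and 1 lower (9.85% and 10.7% of all genes were). Vwf stands in this list and in that of sinusoidal endothelium. Itgb3, the platelet integrin subunit that macrophages can also express, had 35.1 to 46.8 CPM at 0 h, 107, 134 and 137 CPM at 3 h and 184, 142 and 105 CPM at 6 h (0.16 ± 0.22, SE, adjusted p = 0.649).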

How the data were processed

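The authors deposited expected counts, which are estimated counts with fractions, beside FPKM for each Entrez gene in 1 table for 0 h and 3 h and another for 6 h and 12 h, per the file headers. Reads were aligned with HISAT2 to GRCm38, per the submitters' processing notes. Neither the counting program nor its annotation is given in the sources used here. Joining was on the gene identifier. In 5686 of 6054 genes (93.9%) the ratio of count to FPKM, a proxy for gene length, agreed between them within 0.05 on the log2 scale. Total counts were 18644358 to 19954270 at 0 h and 3 h and 19024975 to 20583099 at 6 h and 12 h. No pair among the 0 h, 3 h and 6 h libraries differed by as little as sampling noise (lowest chi-square per degree of freedom 25.2).

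Expected counts were rounded and tested with edgeR 4.0.16 (R 4.3.3): filterByExpr with a minimum count of 10, TMM, quasi-likelihood test, two-sided. Each comparison used its own 6 libraries. The common biological coefficient of variation was 0.215 for 6 h against 3 h. An exact permutation test of 3 against 3 cannot go below 0.1, so none was used. The script was tested on simulated data. The comparison, its 40 gene lists, the motifs and the panel of 30 genes were chosen with earlier results of these data known, so they are no independent evidence. Named genes are up to 8 called genes per direction with the largest change, no overlap and at least 10 CPM, leaving out predicted and multicopy genes, then the 8 largest early changes per direction, up to 6 per class, the panel, and called members of lists. The rule sets which genes can be named, and not all of them are described or reported here. Members named beyond this (Ly6g, Cxcr2, Elane, Fkbp5, Tsc22d3, Pglyrp1, Il18rap) were chosen after their values were seen. Alternatives were each library left out, DESeq2 1.42.0, its size factors within edgeR, no filter, a replicate block, voom with library weights and limma 3.58.1 on log2(FPKM + 1), all 12 libraries in 1 fit and other fold limits. A count of calls in a list stands in place of a set test. Promoter sequences are from RefSeq (GRCm38.p6), the first start listed per gene.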

Additional observations from a re-analysis of the deposited data

How the results depend on the processing

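The counts moved with the processing, while no named gene called in any fit changed direction. For 6 h against 3 h, leaving out 1 library gave 1 to 394 genes called higher and 1 to 565 lower, early rises that faded numbered 0 to 246 and that persisted 0 to 454, and early falls that recovered 1 to 132 and that persisted 0 to 912. At 6 h against 0 h the left-out fits called 0 to 2071 higher and 0 to 1832 lower. The early rises and falls at 3 h against 0 h were 746 to 1076 and 957 to 1583.

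DESeq2 called 1126 higher and 1381 lower at 6 h against 3 h, with 377 faded and 206 recovered. Voom with library weights called 974 and 1037, with 304 faded, 182 recovered and 1132 falls persisted, and 2353 and 2788 at 6 h against 0 h. With all 12 libraries in 1 fit, which takes in the wider spread at 12 h, 56 and 71 were called, with 617 early rises, 40 faded, 137 persisted, 28 recovered, and 460 and 767 at 6 h against 0 h. On log2(FPKM + 1), which understates changes of low genes, there were 375 early rises, 116 faded and 137 persisted, and 55.9% of the calls at 6 h against 3 h were higher rather than 46.0%. With early changes of at least 4-fold the classes held 45, 71, 18 and 330 genes in the order faded, persisted, recovered and persisted falls, and with no minimum fold 390, 861, 293 and 1169.

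The replicate numbers were not taken to pair the libraries, since not every same-numbered pair correlated above 0.1 in any comparison: deviations correlated at -0.11, -0.13 and -0.09 for 3 h and 6 h, at 0.04, 0.25 and -0.11 for 0 h and 3 h, where replicates 1 and 2 matched their own number best, and at -0.32, -0.12 and -0.07 for 0 h and 6 h. With the replicate block 79 genes were called higher and 176 lower at 6 h against 3 h, 11 and 65 at 6 h against 0 h, and the classes held 45, 8, 21 and 54 genes. The cause of these differences was not tested. List medians moved by less than the spread between libraries, except where 6 h replicate 3, 1 or 2 or 3 h replicate 2 was left out of single lists, FPKM was used for the phagocytosis list or the platelet list went unfiltered. A move within that spread could still change the sign. The median of monocyte-derived macrophage markers went from 0.64 to -0.47 without 6 h replicate 3.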

Other observations

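Genes of the interferon response, antigen presentation and mitochondria add to the picture at 6 h against 3 h. Of 20 interferon-stimulated genes tested, Oasl1 was called lower, at 352, 585 and 675 CPM and then 64.6, 141 and 81.3 CPM (-2.52 ± 0.37, SE; edgeR adjusted p = 0.0233), and Oas2, a sensor of double-stranded RNA, was called higher, at 107, 105 and 90.4 CPM and then 146, 259 and 187 CPM (0.94 ± 0.21, SE; adjusted p = 0.0442). Both kept apart between the times, and both calls were lost in at least 3 of the 6 fits that leave out a library, with values of -2.93 to -2.30 and 0.67 to 1.11. Among all genes, 3.87% were called higher and 4.55% lower between the times. Genes of MHC class II presentation had 6 of 10 called higher at 3 h against 0 h (19.1% of all genes were) and 1 at 6 h against 0 h (9.85% of all genes). Between the times their median was -0.47, with 0 called by edgeR, 6 lower at an unadjusted p below 0.05 and 4 lower by DESeq2. The 20 genes of the tricarboxylic acid cycle had 16 called lower at 3 h and 4 at 6 h, each against 0 h (23.1% and 10.7% of all genes were), and Idh2 called higher between the times (0.71, adjusted p = 0.0359). Markers of T and NK cells had 1 of 18 called lower between the times, Cd4, a share near the 4.55% of all genes. They summed to 297 to 463 CPM at 3 h and 109 to 292 CPM at 6 h.

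Single libraries limit these results: of the 1186 genes called at 6 h against 3 h, between 2 and 646 were called again when 1 of the 6 libraries was left out. A gene that was not called is not shown to be unchanged, and time and table cannot be told apart.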
